A study of Mus musculus with 10 samples.

Results

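The genes described are 41 interferon-stimulated antiviral genes of the mouse, a list written by name from the known targets of type I interferon. Every one of the 41 was matched by gene symbol among the 33585 genes of the expression tables, and all 41 passed the filter of a mean of at least 1 FPKM (fragments per kilobase of transcript and per mapped fragments of the library, a level per transcript length) over the 10 libraries. Rsad2 passed it through 2 libraries, since its median in the other 8 was 0.227 FPKM. Oas1a passed it through replicates 1 and 2 of both groups, with a mean of 6.06 FPKM in them and 0.128 FPKM in replicates 3 to 5. RNA was sequenced from the tumor-draining lymph nodes (TDLN) of female wild-type BALB/c mice, 6 weeks old by the study's methods, that carried a 4T1 tumor (a BALB/c mammary carcinoma cell line) in the mammary fat pad. The tumor was destroyed by microwave ablation (MWA) on day 10 in every mouse of both groups. In the MWA+2DG group, 2DG (2-deoxy-D-glucose, a glucose analogue that blocks glycolysis) was then given into the peritoneum every 2 days, and the group labelled MWA received PBS by the study's methods. Nodes were taken on day 15, with 5 libraries per group and 1 per mouse, and no library came from a mouse without ablation. A whole node holds many cell types, so fewer cells of a type and less RNA per cell cannot be told apart in these values.

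Type I interferons are cytokines made when a cell senses viral or misplaced nucleic acid. They bind the receptor IFNAR1/IFNAR2, and its kinases JAK1 and TYK2 activate signal transducers such as STAT2, which join IRF9 in a complex (ISGF3) that binds the interferon-stimulated response element (ISRE) in the promoters of its targets. The products of these targets block translation, replication, budding and trafficking of viruses, and some of them, such as IRF7, feed the production of more interferon. In lymph nodes, plasmacytoid dendritic cells and macrophages are known sources of type I interferon.

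Promoters are shown because the 41 genes are defined as targets of one signal and nearly all of them were highest in the same libraries. RefSeq promoter windows (assembly GRCm38.p6, 250 bases before to 50 after the start) had an entry for 31 of the 41 genes, and Dhx58, Zbp1, Oas2, Mx1, Mx2, Usp18, Parp9, Parp14, Rtp4 and Ifi27l2a had none. The ISRE core, GAAA and GAAA with any 2 bases between them, searched on both strands with overlapping matches allowed, was present in 16 of the 31 genes (51.6%) and in 1079 of all 27025 genes with a window (3.99%). The core of the gamma-activated sequence, TTC and GAA with any 3 bases between them, an element of the interferon gamma response, was present in 5 of the 31 (16.1%) and in 9.55% of all genes. In 12 of the 16 genes a match lay wholly before the start. Stretches of 60 bases before the start are printed for some members with such a match whose values are given below. Members without one, such as Irf7 and Ddx58, are not printed. The stretches are read along the strand of the gene from the reference genome. Matches to the ISRE core, or its reverse complement (TTTC and TTTC with 2 bases between them), are in capitals. The reference is not BALB/c, so these are not sequences of the mice studied.
Isg15 (chr4:156200850-156200909, minus strand): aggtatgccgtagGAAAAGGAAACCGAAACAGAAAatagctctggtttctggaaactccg
Ifit1 (chr19:34640779-34640838, plus strand): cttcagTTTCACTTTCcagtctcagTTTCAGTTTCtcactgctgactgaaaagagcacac
Ifit3 (chr19:34583382-34583441, plus strand): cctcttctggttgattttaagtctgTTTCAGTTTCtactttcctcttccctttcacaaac
Ifit3b (chr19:34607778-34607837, plus strand): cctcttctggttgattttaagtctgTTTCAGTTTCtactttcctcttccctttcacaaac
Rsad2 (chr12:26456538-26456597, minus strand): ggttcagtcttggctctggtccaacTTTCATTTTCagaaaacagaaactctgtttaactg
Bst2 (chr8:71537562-71537621, minus strand): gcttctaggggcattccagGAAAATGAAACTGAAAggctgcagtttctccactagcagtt
Oas1a (chr5:120907526-120907585, minus strand): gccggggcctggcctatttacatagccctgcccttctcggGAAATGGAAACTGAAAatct
Isg15 held 3 overlapping matches, Bst2 and Oas1a 2 overlapping matches each, and Ifit1 2 separate ones. The stretches of Ifit3 and Ifit3b were identical, and reads of this pair may have been shared between them by the quantification. A match is a string of letters and not a shown binding site, and a gene without one, such as Irf7, may carry a variant of the element that these letters do not describe.

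The 10 libraries did not behave as 2 groups of like samples for these genes. MWA+2DG 5 had the highest level in 40 of the 41 genes and MWA 4 the next highest in 39, and these 2 mice come from opposite groups. Against the median of the other 8 libraries, the FPKM of a member was higher by a median of 9.51-fold in MWA+2DG 5 and 5.58-fold in MWA 4. MWA+2DG 2 had the third level in 34 genes (median ratio 2.09) and MWA 5 the fourth in 21 (median ratio 1.39), while the median ratio of each of the remaining 6 libraries lay between 0.931 and 1.02. In those 6, the highest and the lowest FPKM of a gene differed by a median of 1.34-fold over the members apart from Oas1a. Over all 13334 tested genes the median ratio was 0.899 in MWA+2DG 5 and 0.959 in MWA 4. The median log2 fold change over the 41 genes, the count of positive genes and the fold changes of the genes given in full are therefore given with and without these 2 libraries. The SDs within group are given only with them.

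**Figure D1:**
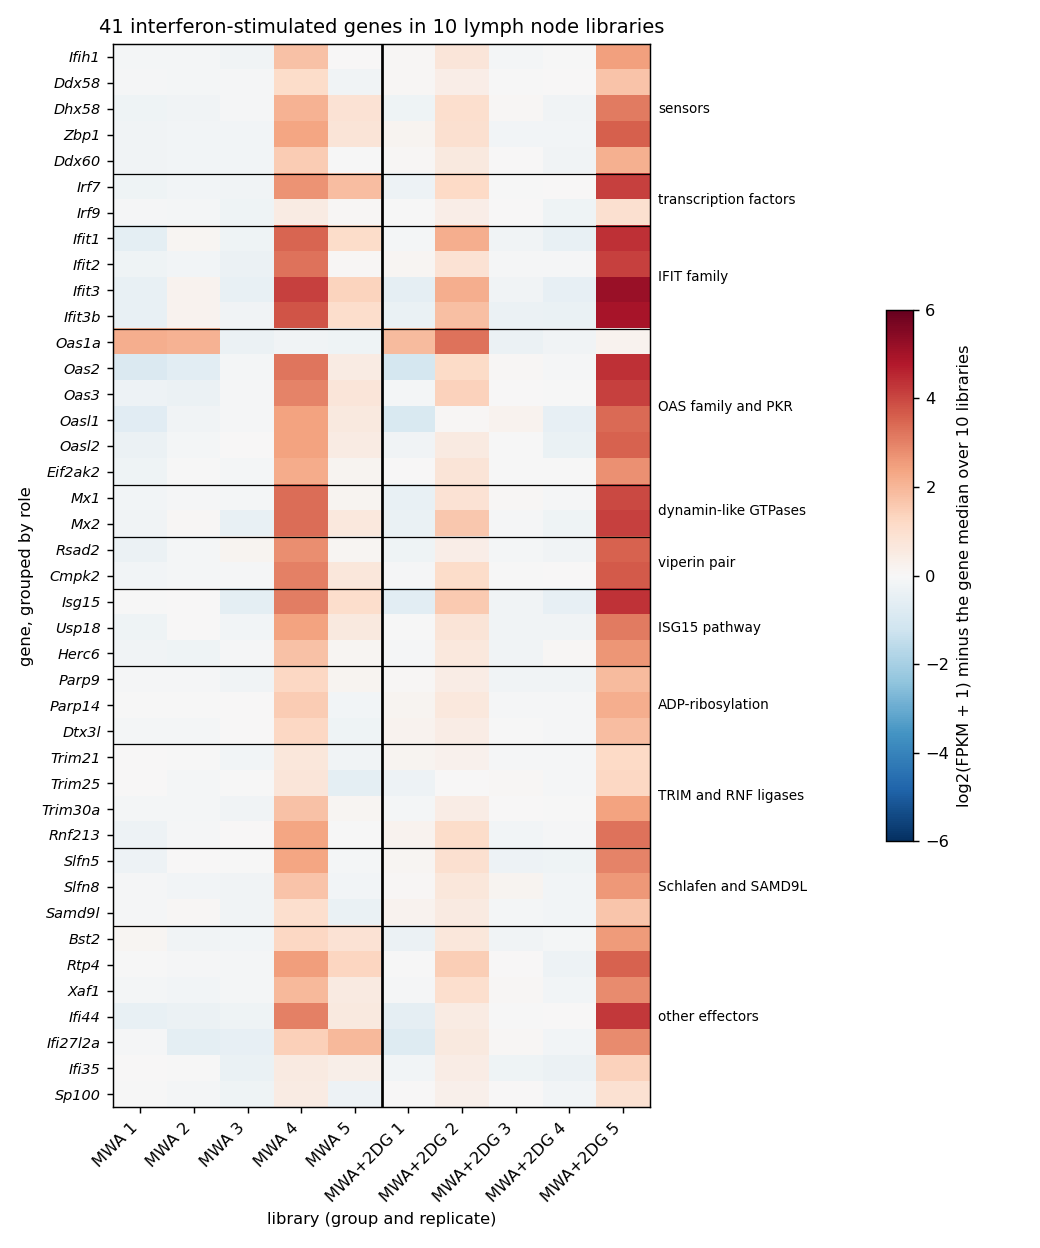
Heat map of the 41 genes (rows, grouped by role) in the 10 libraries (columns, MWA left and MWA+2DG right of the line). Color is log2(FPKM + 1) minus the gene's median over the 10 libraries. MWA+2DG 5 and MWA 4 are red in nearly every row, MWA+2DG 2 is paler, and Oas1a alone is high in replicates 1 and 2 of both groups.

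None of the 41 genes passed a threshold of difference between MWA+2DG and MWA. The study's rule is a limma P below 0.05 and a log fold change beyond 0.25, with the base not stated and log2 used here. The rule called 0 of the 41 genes, against 376 of 13334 tested genes (2.82%). Of the tested genes, 127 were called higher (0.952%) and 249 lower (1.87%) with 2DG. With each library rescaled to a total of 1000000, the rule called 328 genes higher and 159 lower and again 0 members. No member reached an unadjusted limma P below 0.05 (4.25% of tested genes did), the lowest being 0.260 for Sp100. Without MWA 4 and MWA+2DG 5, 1 member did, Ddx58 at 0.0443, beside 4.15% of tested genes. In none did the groups fail to overlap (0.802% of tested genes), and no tested gene passed a Benjamini-Hochberg adjusted p of 0.05 in limma, where 567 genes had an unadjusted P below 0.05. The log2 fold change of log2(FPKM + 1) was positive in all 41 genes, from 0.04 (Oasl1) to 0.49 (Ifit2), with a median of 0.27, where 52.6% of tested genes were positive and the median of all was 0.01. In 40 of the 41 the fold change was smaller than its own standard error, which ran from 0.21 to 1.20. Only Sp100 exceeded it (0.25, SE 0.21).

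The common sign depended on the libraries in the fit, and it turned in most genes only when MWA+2DG 5 alone was left out. Without MWA+2DG 5 the median log2 fold change was -0.28, and 36 of the 41 genes were negative. Without MWA 4 it was 0.69 with all 41 positive. Without both it was 0.18, with 33 positive and 8 negative. The median FPKM of the 5 libraries, which a single mouse moves little, was higher with 2DG in 31 genes and lower in 10 (49.6% of tested genes were higher). Among the 8 libraries left without both mice, MWA+2DG 2 was the highest in 35 genes and MWA 5 in 5. Within replicates 1 and 2 alone the median was 0.47 (40 positive), and within replicates 3 to 5 alone it was 0.13 (34 positive), each fold change resting on no more than 3 mice a group. Nearly all of the 41 genes, though not Oas1a, were highest in the same mice, so 41 like signs are not 41 independent ones.

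**Figure D2:**
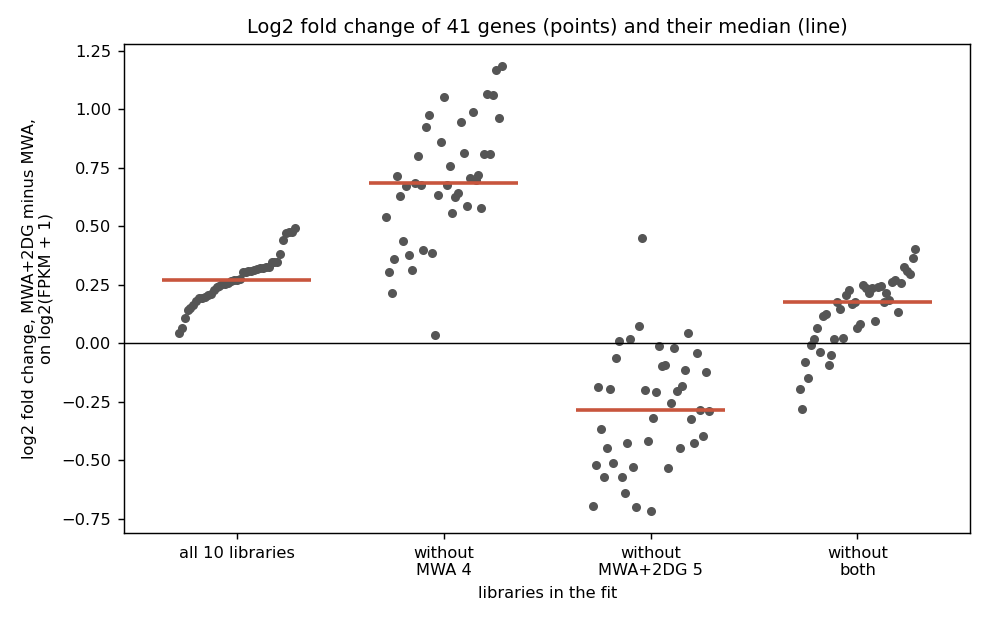
Log2 fold change, MWA+2DG minus MWA, of each of the 41 genes (points, in the same order in each column) and the median (line), fitted on all 10 libraries and after leaving out MWA 4, MWA+2DG 5 or both. The median is 0.27, 0.69, -0.28 and 0.18 in turn.

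What set these genes apart in the node was the spread between mice of the same group. The SD within group of log2(FPKM + 1) had a median of 1.27 over the 41 genes and 0.173 over all tested genes. Of the 41, 38 were among the 667 tested genes (5%) with the largest SD and 23 among the top 1%. Most of the 667 were therefore not members. The smallest SD of a member, 0.379 in Sp100, was at percentile 90.6 of all tested genes.

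**Figure D3:**
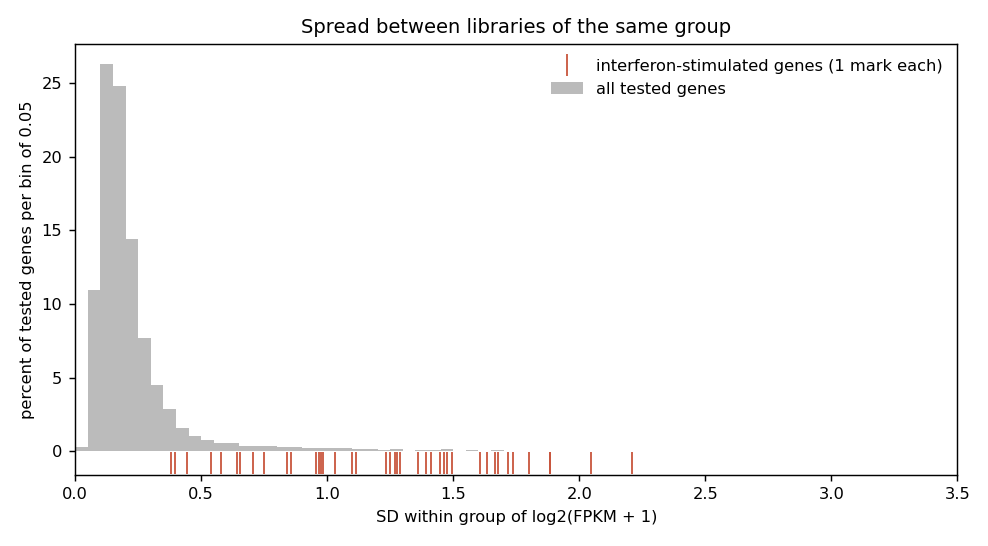
Histogram of the SD within group of log2(FPKM + 1) for the 13334 tested genes (gray, percent per bin), with 1 mark under the axis for each of the 41 genes. The marks run from 0.379 to 2.21, and the bulk of tested genes lies around the median of 0.173.

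The nucleic acid sensors were the members on the input side. RIG-I (Ddx58) and MDA5 (Ifih1) detect viral RNA and signal through MAVS, LGP2 (Dhx58) regulates them, DDX60 promotes RIG-I signaling, and ZBP1 senses Z-form nucleic acid. Ddx58 was 10.6, 10.4, 10.7, 25.9 and 9.56 FPKM in MWA 1 to 5 and 11.8, 15.2, 11.1, 11.5 and 39.2 FPKM in MWA+2DG 1 to 5. The groups overlapped in Ddx58 through MWA 4, since the other 4 MWA libraries lay below every MWA+2DG library. Its log2 fold change was 0.31 (SE 0.36; exact permutation p = 0.452). Zbp1 had the widest range of the 5 sensors, at 187 FPKM in MWA+2DG 5 and 80.6 FPKM in MWA 4 against a median of 13.3 FPKM in the other 8 libraries. Over the 5 sensors the ratio in MWA+2DG 5 ran from 3.60 to 14.1 and the log2 fold change between groups from 0.27 to 0.35.

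IRF7, the factor that drives interferon alpha genes, and IRF9, the DNA-binding subunit of ISGF3, ranked the same mouse first over ranges of unlike width. Irf7 was 16.2, 17.7, 17.0, 134 and 74.4 FPKM in MWA 1 to 5 and 15.5, 46.7, 19.4, 19.99 and 359 FPKM in MWA+2DG 1 to 5. Irf7 was highest in MWA+2DG 5 and MWA 4, one from each group, and MWA 5 came next at 4.01 times the median of the 8 libraries. Irf9 was 21.0, 20.1, 17.9, 31.0 and 23.0 FPKM in MWA 1 to 5 and 21.6, 29.2, 22.1, 18.0 and 43.4 FPKM in MWA+2DG 1 to 5. Irf9 kept to a narrow range, with MWA+2DG 5 at 2.04 times and MWA 4 at 1.45 times the median of the other 8. The log2 fold change was 0.21 (SE 0.89; exact permutation p = 0.873) for Irf7 and 0.20 (SE 0.22; exact permutation p = 0.492) for Irf9. Without MWA+2DG 5 it was -0.57 for Irf7 and 0.01 for Irf9.

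The IFIT proteins, which bind viral RNA lacking the host cap methylation and block its translation, were among the members of large ratio, as were Rsad2 and Ifi44. Ifit3 was 2.73, 5.06, 2.79, 86.1 and 12.1 FPKM in MWA 1 to 5 and 2.57, 22.5, 3.38, 2.66 and 185 FPKM in MWA+2DG 1 to 5. Ifit3b was 0.648, 1.602, 0.971, 30.0 and 3.74 FPKM in MWA 1 to 5 and 0.744, 6.87, 0.798, 0.740 and 68.4 FPKM in MWA+2DG 1 to 5. Ifit3 and its near copy Ifit3b shared their 5 highest mice in the same order, with MWA+2DG 5 at 59.8 and 77.3 times the median of the other 8 libraries. Ifit1 was 1.02, 2.32, 1.55, 33.6 and 5.41 FPKM in MWA 1 to 5 and 1.77, 12.8, 1.62, 1.25 and 62.0 FPKM in MWA+2DG 1 to 5. After MWA+2DG 5 and MWA 4, MWA+2DG 2 came next in Ifit1 at 7.52 times the median of 8, as in Ifit3 (7.30 times) and Ifit3b (7.76 times), and it stood at 2.13 times in Ifit2. The log2 fold changes between groups were 0.27 (SE 1.20; exact permutation p = 0.810) for Ifit3, 0.25 (SE 1.12; p = 0.825, exact) for Ifit3b and 0.38 (SE 1.03; p = 0.762, exact) for Ifit1. Ifit2, at 96.9 FPKM in MWA+2DG 5 and 53.9 FPKM in MWA 4, had the largest fold change of all members and still one smaller than its SE of 0.91.

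**Figure D4:**
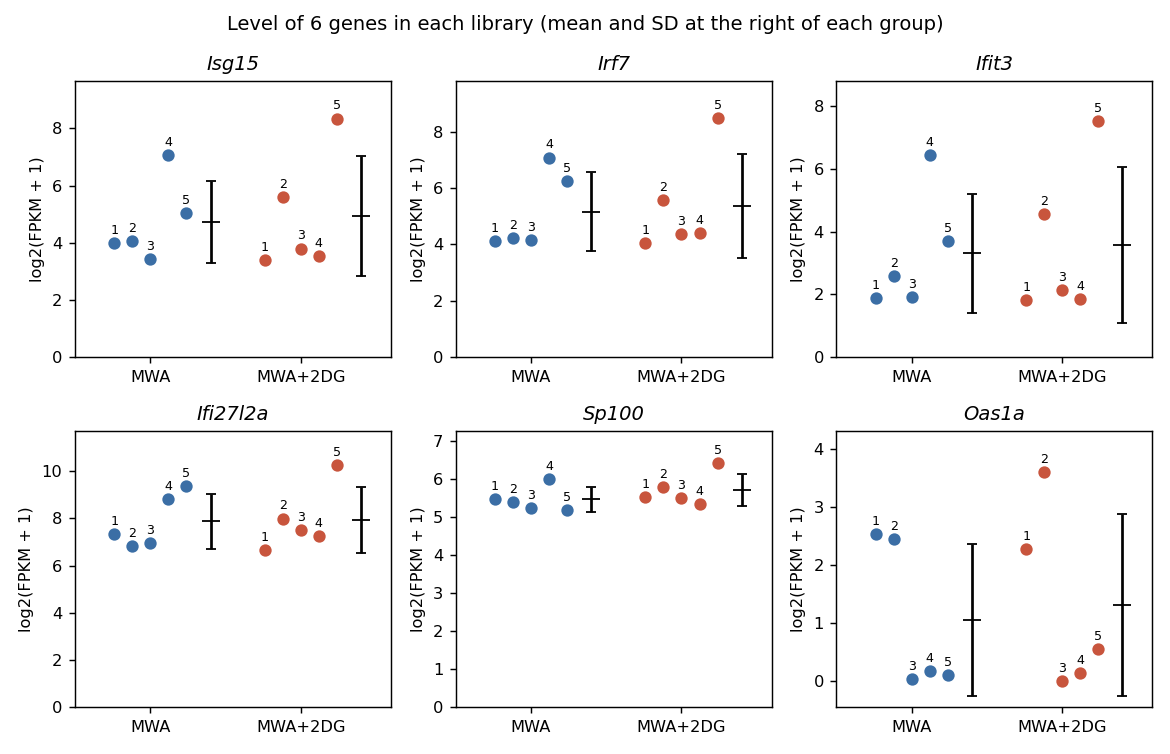
Level of Isg15, Irf7, Ifit3, Ifi27l2a, Sp100 and Oas1a in each library, as log2(FPKM + 1), with the replicate number at each point and the mean and SD (n = 5) at the right of each group. MWA 4 and MWA+2DG 5 lie above the rest in the first 3 panels, the same 2 lie highest in Sp100 over a narrower range, and Oas1a splits by replicate number instead.

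The OAS enzymes make 2′-5′ oligoadenylate, which activates RNase L to degrade RNA, and PKR (Eif2ak2) halts translation on double-stranded RNA. Oas2 was 1.74, 2.21, 3.56, 44.2 and 6.002 FPKM in MWA 1 to 5 and 1.39, 10.1, 4.16, 3.69 and 102 FPKM in MWA+2DG 1 to 5. Oas2 was above 10 FPKM in 3 mice and below 7 FPKM in the others, and its log2 fold change was 0.48 (SE 1.03; exact permutation p = 0.643). Oas3, Oasl1, Oasl2 and Eif2ak2 followed the same 2 mice, with ratios in MWA+2DG 5 of 28.7, 13.7, 21.8 and 9.22 and in MWA 4 of 12.8, 6.75, 9.54 and 6.32. Oas1a was 4.78, 4.44, 0.0157, 0.122 and 0.0727 FPKM in MWA 1 to 5 and 3.83, 11.2, 0, 0.0973 and 0.460 FPKM in MWA+2DG 1 to 5. Oas1a was the exception of the list, present in replicates 1 and 2 of both groups and close to 0 in replicates 3 to 5 of both, MWA 4 and MWA+2DG 5 included. It was also the 1 member of 41 that differed between these replicate sets at a Benjamini-Hochberg adjusted p below 0.05 (limma, adjusted p = 0.000136), where 488 tested genes (3.66%) did. Oas1b, a neighbor in the same family that is no member, was 13.9 to 24.6 FPKM in replicates 1 and 2 and 2.51 to 11.0 FPKM in replicates 3 to 5 (limma, adjusted p = 0.0279). The Oas1 genes are near copies of each other, so their separate values are uncertain. The labels do not say what the replicate numbers stand for, and they do not give this split. The split was chosen with values of these data known, and Oas1a passed the filter only through replicates 1 and 2, where it was high. The adjusted p-values of Oas1a and Oas1b therefore describe the split and are no independent test of it.

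Mx1 and Mx2 are genes of the dynamin-like GTPases, a family that can trap viral nucleocapsids, and their RNA was low in most mice. RNA levels do not show whether working protein is made in this strain. Mx2 was 1.21, 1.70, 0.850, 24.6 and 2.96 FPKM in MWA 1 to 5 and 0.945, 6.92, 1.39, 1.16 and 42.7 FPKM in MWA+2DG 1 to 5. The 2 high mice stood 18.9 and 32.8 times above the median of the other 8 in Mx2, and Mx1 did likewise at 12.9 times in MWA 4 and 20.4 times in MWA+2DG 5. The log2 fold change of Mx2 was 0.33 (SE 0.95; exact permutation p = 0.738). Rsad2 (viperin) and its genomic neighbor Cmpk2 act together to make a chain-terminating nucleotide. Rsad2 was 0.0708, 0.223, 0.524, 8.22 and 0.474 FPKM in MWA 1 to 5 and 0.125, 0.768, 0.230, 0.179 and 14.8 FPKM in MWA+2DG 1 to 5. Rsad2 was below 0.8 FPKM in 8 mice and above 8 FPKM in MWA 4 and MWA+2DG 5. Cmpk2 was 24.1 FPKM in MWA 4 and 38.1 FPKM in MWA+2DG 5, against a median of 1.95 FPKM.

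ISG15 is a ubiquitin-like protein conjugated to newly made proteins, HERC6 is its ligase in the mouse, and USP18 removes it and dampens signaling at IFNAR2. Isg15 was 14.7, 15.6, 9.86, 134 and 32.1 FPKM in MWA 1 to 5 and 9.49, 47.1, 12.9, 10.6 and 323 FPKM in MWA+2DG 1 to 5. Its mean was 41.2 ± 52.5 FPKM in MWA and 80.7 ± 137 FPKM in MWA+2DG (SD, n = 5), so that the SD exceeded the mean in both groups. The log2 fold change was 0.21 (SE 0.98; exact permutation p = 0.865), and it was -0.64 without MWA+2DG 5 and -0.05 without both high mice. Usp18 and Herc6 had ratios of 10.3 and 8.03 in MWA+2DG 5 and of 6.16 and 4.21 in MWA 4.

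Among the members acting through ADP-ribosylation and ubiquitin, the range was narrower. PARP9 and DTX3L form a complex that modifies histones and viral proteins, and PARP14 is an ADP-ribosyltransferase. Dtx3l was 12.1, 12.2, 13.2, 32.0 and 10.8 FPKM in MWA 1 to 5 and 15.2, 18.0, 12.9, 12.4 and 49.7 FPKM in MWA+2DG 1 to 5. Dtx3l was above 30 FPKM in the 2 high mice and below 19 FPKM in the others (log2 fold change 0.32, SE 0.39; exact permutation p = 0.484). Trim21 was 12.3, 12.1, 10.8, 20.2 and 10.4 FPKM in MWA 1 to 5 and 13.9, 15.0, 11.7, 11.6 and 29.2 FPKM in MWA+2DG 1 to 5. TRIM21, a cytosolic antibody receptor and ubiquitin ligase, showed the same 2 mice at 1.70 and 2.45 times the median of 8 (log2 fold change 0.24, SE 0.25; exact permutation p = 0.460). Rnf213, a very large ubiquitin ligase with activity against bacteria and viruses, reached 10.6 times the median in MWA+2DG 5, while Trim25, which ubiquitinates RIG-I, reached 2.55 times and Trim30a 5.84 times. The 3 ADP-ribosylation genes had log2 fold changes of 0.18 to 0.32 and the 4 TRIM and RNF ligases of 0.20 to 0.48.

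The Schlafen genes restrict translation and cell growth, and SAMD9L restricts poxviruses. Samd9l was 43.2, 46.3, 38.7, 89.99 and 34.1 FPKM in MWA 1 to 5 and 52.0, 65.8, 41.7, 40.1 and 142 FPKM in MWA+2DG 1 to 5. Samd9l was expressed in every mouse and differed by 0.35 (SE 0.35; exact permutation p = 0.444) on the log2 scale. Slfn5 and Slfn8 stood at 9.29 and 6.90 times the median of 8 in MWA+2DG 5 and at 5.92 and 3.66 times in MWA 4.

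The remaining effectors included the members of highest level. Ifi27l2a was 162, 112, 123, 456 and 669 FPKM in MWA 1 to 5 and 98.6, 254, 181, 152 and 1240 FPKM in MWA+2DG 1 to 5. Ifi27l2a, a mitochondrial interferon-induced protein, was the gene where MWA 5 came second, above MWA 4, and its log2 fold change was 0.06 (SE 0.70; exact permutation p = 0.960). Bst2 was 95.7, 74.6, 77.4, 209 and 162 FPKM in MWA 1 to 5 and 68.5, 142, 75.9, 79.8 and 518 FPKM in MWA+2DG 1 to 5. BST2 (tetherin), which holds budding virions at the cell surface and marks plasmacytoid dendritic cells at rest, was above 65 FPKM in all mice and had a log2 fold change of 0.14 (SE 0.53; exact permutation p = 0.889). Sp100 was 43.9, 41.4, 37.1, 63.4 and 35.8 FPKM in MWA 1 to 5 and 45.4, 54.1, 44.8, 39.8 and 85.6 FPKM in MWA+2DG 1 to 5. SP100, a nuclear body protein that represses viral genomes, gave the lowest P of the list and still overlapped between the groups (log2 fold change 0.25, SE 0.21; exact permutation p = 0.341). Rtp4, Xaf1, Ifi44 and Ifi35 had ratios of 13.9, 9.51, 38.0 and 2.82 in MWA+2DG 5.

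The size of the ratio went with the level at which a gene lay in the other 8 mice. That level is also the divisor of the ratio, and a low divisor raises it, so part of this trend is fixed by the arithmetic. The 18 members with a median below 5 FPKM there had a median ratio of 21.8 in MWA+2DG 5 and 12.2 in MWA 4. The 16 members from 5 to 20 FPKM had 9.79 and 5.50, and the 7 members at 20 FPKM or more had 3.35 and 2.12. The median ratio in MWA+2DG 5 was 8.69 over the 16 members whose window held the ISRE core and 9.51 over the 15 whose window did not.

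Without MWA 4 and MWA+2DG 5 the standard errors of the members given in full were smaller. The log2 fold change of Ddx58 was then 0.24 (SE 0.10; limma, adjusted p = 0.852), and its 4 MWA libraries lay between 9.56 and 10.7 FPKM and its 4 MWA+2DG libraries between 11.1 and 15.2 FPKM. It was the 1 member of 41 whose groups then did not overlap, beside 2.7% of tested genes, and its fold change stayed below the 0.25 of the study's rule. Dtx3l was 0.25 (SE 0.12), Sp100 0.21 (SE 0.11), Trim21 0.18 (SE 0.10), Samd9l 0.27 (SE 0.16) and Irf9 0.13 (SE 0.14). Ifit1 was 0.26 (SE 0.59), Ifit3 0.07 (SE 0.65), Ifit3b 0.02 (SE 0.53), Oas2 0.30 (SE 0.45) and Mx2 0.22 (SE 0.44). The fold change was negative in Isg15 (-0.05, SE 0.51), Irf7 (-0.09, SE 0.51), Bst2 (-0.15, SE 0.29) and Ifi27l2a (-0.28, SE 0.55).

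MWA+2DG 5 exceeded MWA 4 by a median of 1.82-fold over the 41 genes, from 1.35-fold to 3.78-fold, the last in Oas1a, where both were below 1 FPKM. It was 2-fold or more above the median of the other 8 in 40 genes and 10-fold or more in 20, and MWA 4 was so in 35 and 11 genes.

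Upstream of these genes, the ligands were at the edge of detection. Of 18 type I interferon genes listed, 12 were in the tables, none reached 1 FPKM in any mouse and none was tested. Their summed FPKM was 0.661 in MWA 4 and 0.709 in MWA+2DG 5, against a median of 0.0817 in the other 8. Interferon beta (Ifnb1) was listed at 0.0719 FPKM in MWA 4 and 0.121 FPKM in MWA+2DG 5 and at 0 in the other 8. Of the 12 ligand genes, 6 were above 0 in MWA 4, 8 in MWA+2DG 5 and 1 or 2 in each other mouse. Such values may stand for a few reads, and the depth is unknown.

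The receptor genes varied little between mice. Ifnar1 was 17.6, 18.6, 17.8, 17.8 and 16.1 FPKM in MWA 1 to 5 and 20.9, 17.7, 19.2, 19.2 and 18.6 FPKM in MWA+2DG 1 to 5. Ifnar2 was 19.2, 17.8, 18.9, 18.0 and 20.5 FPKM in MWA 1 to 5 and 18.6, 19.8, 19.1, 19.9 and 21.4 FPKM in MWA+2DG 1 to 5. Neither MWA 4 nor MWA+2DG 5 stood apart in Ifnar1, and MWA+2DG 5 exceeded the next library of Ifnar2 by less than 1 FPKM. The log2 fold changes between groups were 0.11 (SE 0.07; exact permutation p = 0.0476) and 0.06 (SE 0.07; p = 0.214, exact). Over the 18 genes tested by exact permutation here, the p of Ifnar1 was 0.857 after Benjamini-Hochberg adjustment and the others were 0.941 or more. The transducer STAT2, whose gene is itself an interferon target, followed the 2 mice. Stat2 was 16.8, 17.9, 16.6, 48.8 and 17.1 FPKM in MWA 1 to 5 and 18.5, 24.6, 16.4, 16.2 and 95.9 FPKM in MWA+2DG 1 to 5. The log2 fold change of Stat2 was 0.29 (SE 0.48; exact permutation p = 0.603), and without the 2 mice it was 0.12 (SE 0.13) for Stat2, 0.13 (SE 0.08) for Ifnar1 and 0.02 (SE 0.07) for Ifnar2. Of the 14 tested receptor and signaling genes, 0 were called, 11 were positive and the median log2 fold change was 0.06. Ifnar1, the phosphatase gene Ptpn6 and the feedback inhibitor Socs3 had the smallest P, the lowest being 0.118 (limma, unadjusted, adjusted p = 0.996).

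Upstream sensing had 11 tested genes, 0 called and 9 positive, with a median of 0.13. Ikbke was 16.5, 14.7, 16.6, 15.4 and 13.2 FPKM in MWA 1 to 5 and 19.2, 18.2, 18.9, 18.9 and 15.7 FPKM in MWA+2DG 1 to 5. Ikbke, the kinase IKK epsilon that phosphorylates IRF3 and IRF7, had an unadjusted limma P of 0.0162 (adjusted p = 0.996) with a log2 fold change of 0.24 (SE 0.08), just under the 0.25 of the study's rule. It did not follow the 2 high mice, which stood at 0.888 (MWA 4) and 0.904 (MWA+2DG 5) of the median of the other 8. STING (listed as Tmem173) and Tbk1 followed it in order of P, at 0.133 and 0.150, with log2 fold changes of 0.13 and 0.19. The endosomal RNA receptor Tlr7 was 14.3 FPKM in MWA 4 and 25.2 FPKM in MWA+2DG 5 against a median of 3.97 FPKM and is named after its values were seen.

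**Figure D5:**
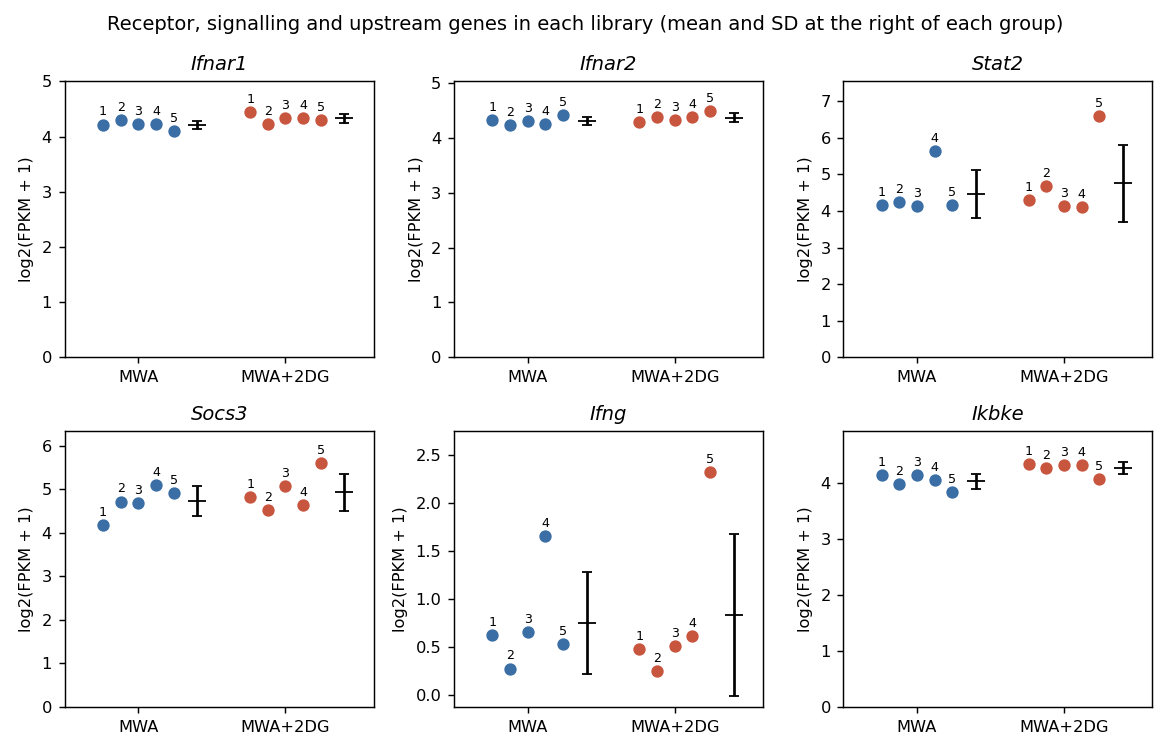
Level of the receptor genes Ifnar1 and Ifnar2, the transducer Stat2, the feedback inhibitor Socs3, interferon gamma (Ifng) and the kinase Ikbke in each library, as log2(FPKM + 1), with replicate numbers and the mean and SD (n = 5) at the right of each group. Stat2, Socs3 and Ifng are highest in MWA 4 within MWA and in MWA+2DG 5 within MWA+2DG, and the receptor genes lie within a narrow band.

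Interferon gamma, the type II interferon of T and NK cells, was high in the same 2 mice at a low level. Ifng was 0.548, 0.213, 0.579, 2.15 and 0.446 FPKM in MWA 1 to 5 and 0.399, 0.188, 0.427, 0.539 and 4.02 FPKM in MWA+2DG 1 to 5. Its mean was under the filter of 1 FPKM and it was not tested. Of the type II and III list 3 genes were tested, all receptor chains (Ifngr2, Ifngr1 and Il10rb), with 0 called, a lowest unadjusted P of 0.325 and a median log2 fold change of -0.02. Type I and type II interferon share many of their targets, so the 41 genes do not tell the 2 apart.

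Other interferon-stimulated genes, a further list of 65 of which 64 were in the tables, are targets that the list of 41 leaves out. Of the 59 tested, 0 were called and 51 were positive, with a median log2 fold change of 0.21. MWA+2DG 5 was highest in 54 of these 59, with MWA 4 next in 52. Shisa5, Ifi211 and Slfn1 had the smallest unadjusted P, the lowest being 0.101. Not every gene of the list followed the 2 mice. Siglec1, the macrophage lectin often used as an interferon marker, was 21.6 FPKM in MWA 4, 10.2 FPKM in MWA+2DG 5 and between 10.3 and 23.9 FPKM in the others, and Ifitm1, Ifitm2 and Ifi30 did not rank those mice first either.

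Of all 13334 tested genes, 48 (0.360%) were at least 4-fold above the median of the other 8 on the FPKM + 1 scale in both MWA 4 and MWA+2DG 5, and 23 of them were members and 6 were on the further list. Among the others were the chemokines Cxcl9 and Cxcl11, the GTPases Gbp6, Gbp7, Gbp10 and Iigp1, and the granzymes Gzma and Gzmb. At 2-fold, 183 genes (1.37%) passed, 35 of them members and 31 of the further list. These 2 mice were picked for their levels, so the counts describe them and test nothing.

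Cell type markers were summed in each library to see what else differed in those mice. Every library held the markers of a lymph node, with summed B cell markers of 1499 to 1817 FPKM and T cell markers of 365 to 578 FPKM. The T cell sum was 365 FPKM in MWA 4 and 388 FPKM in MWA+2DG 5, the lowest values of their groups, but MWA 3, a mouse with low levels of the 41 genes, was at 367 FPKM, and the other 7 ran from 459 to 578 FPKM. The monocyte sum was 195 and 400 FPKM in the 2 mice and 141 FPKM in MWA 5, against a median of 62.2 FPKM in the 8, chiefly through Ly6c2 and Plac8. The NK cell sum was 102 and 147 FPKM in the 2 mice and 82.8 FPKM in MWA 5, against a median of 40.1 FPKM, led by Gzma. Plasmacytoid dendritic cell markers were 176 and 130 FPKM, where the other 8 ran from 152 to 189 FPKM, and macrophage markers were 246 and 279 FPKM, where the other 8 ran from 218 to 358 FPKM. Neutrophil markers were 31.1 and 28.5 FPKM, where the other 8 ran from 14.2 to 106 FPKM (median 22.3 FPKM). Plasma cell markers were 684 and 249 FPKM, where the other 8 ran from 224 to 803 FPKM (median 380 FPKM). Stromal and endothelial markers were 1351 and 1441 FPKM, where the other 8 ran from 1451 to 2238 FPKM (median 1771 FPKM). Epithelial markers were 4.24 and 11.8 FPKM, where the other 8 ran from 2.05 to 5.94 FPKM (median 4.29 FPKM). Markers of liver went with the replicate number, at 87.0 to 102 FPKM in replicates 1 and 2 of both groups and 155 to 288 FPKM in replicates 3 to 5, the 2 mice among them. The part of these differences in the levels of the 41 genes was not tested.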

How the data were processed

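TDLN libraries of 10 mice (MWA, n = 5; MWA+2DG, n = 5) were used. The authors deposited FPKM per gene, 1 table per library, and no read counts, so depth and counting error are unknown. The paper names fastp, HISAT2, StringTie and ballgown, and the submitters' processing notes name cutadapt 1.9, HISAT2 2.0.4, UMI-tools, StringTie 1.3.4d and the mm9 build. The library protocol adds molecular identifiers, and their use in the FPKM is not stated. FPKM divides by the total, so a few abundant transcripts can move all other values.

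Here 33541 of 33643 identifiers were matched to symbols, values of 57 shared symbols were summed, and log2(FPKM + 1) of the 13334 genes whose mean reached 1 FPKM was fitted with limma 3.58.1 in R 4.3.3 (no covariate, Benjamini-Hochberg adjustment over all 13334). A fold change on this scale understates the change of low genes. Two-sided exact permutation tests cannot go below p = 0.00794 for 5 against 5. The fit was also run on simulated data, with 200 genes changed and each gene drawn independently. Such data hold no mice that stand apart in many genes at once, so the run does not cover that feature. The members, the lists and the split of replicates 1 and 2 from 3 to 5 were chosen with earlier results of these data known. Genes given in full were the 6 of smallest P, the 6 of largest spread, the 4 of highest mean FPKM and Isg15, Irf7, Irf9, Ifit3 and Ifit3b, with Stat2, Ifnar1, Ifnar2 and Ifng, and the 3 of smallest P of each pathway list were named. Not every gene that this rule selects is reported here. Rsad2, Oas1a, Tlr7 and Oas1b were added after their values were seen. Correlations between members were planned and left out, because 2 libraries stand apart from the rest. Alternatives were other pseudocounts, filters, scalings, thresholds and covariates and leaving out each library. Leaving out MWA 4 and MWA+2DG 5 together was added after seeing the data. P-values set a difference of group means against the spread between mice.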

Additional observations from a re-analysis of the deposited data

Results flagged for a closer look

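Dixon's ratio, the gap between the extreme library and its nearest neighbor divided by the range of the group on the log2(FPKM + 1) scale, was compared with 0.71, the 95% critical value for 5 samples, which chance passes in about 1 of 20 groups. In the MWA group 18 of the 41 genes passed it, each with MWA 4 as the extreme, where 8.39% of tested genes passed. In the MWA+2DG group 11 passed, each with MWA+2DG 5, where 7.6% of tested genes did. The mean log2 level over the 41 genes passed in MWA, with MWA 4 at 5.17 and a ratio of 0.747. In MWA+2DG this mean did not pass, with MWA+2DG 5 at 6.02 and MWA+2DG 2 next at 3.99. Among the genes given in full, MWA 4 was extreme in Ddx58 (0.891), Dtx3l (0.823), Trim21 (0.750) and Mx2 (0.71). MWA+2DG 5 was extreme in Ddx58 (0.761), Dtx3l (0.736) and Trim21 (0.723). The causes were not tested.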

How the results depend on the processing

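No member passed the study's rule under any of the alternatives run, and the log2 fold changes of all tested members were positive under each that kept all 10 libraries (36 were tested with a filter of 5 FPKM). The median over the members stayed between 0.27 and 0.36 under these. Leaving out 1 library, or MWA 4 and MWA+2DG 5, moved it between -0.28 and 0.69, the number of positive members between 5 and 41, and the calls over all tested genes between 80 and 222 higher and between 156 and 315 lower. These calls were 127 higher and 249 lower with all libraries, 69 and 161 with a filter of 5 FPKM, 328 and 159 after rescaling to 1000000, 218 higher and 349 lower with no fold change threshold, and 0 and 0 at an adjusted p below 0.05. The replicate numbers shared by the groups were not used as pairs in the values above. Same-numbered mice had deviations that correlated at 0.33, 0.50, 0.11, 0.03 and 0.15, of which 1 was under the 0.1 asked of every pair, and 3 of 10 libraries correlated best with their own number. With the replicate block the rule called 164 genes higher and 285 lower and 0 members, with a median over the members of 0.27.

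Leaving out libraries turned the sign of the log2 fold change of Ddx58 (from -0.013 to 0.56), Dtx3l (-0.021 to 0.59), Ifit1 (-0.42 to 1.06), Ifit3 (-0.72 to 1.05), Ifit3b (-0.70 to 0.98), Oas2 (-0.40 to 1.17), Isg15 (-0.64 to 0.80), Mx2 (-0.45 to 0.99), Ifi27l2a (-0.52 to 0.44), Bst2 (-0.37 to 0.36), Irf7 (-0.57 to 0.69), Stat2 (-0.17 to 0.58) and Il10rb (-0.040 to 0.019, and 0.044 after rescaling). Each of the first 12 was negative without MWA+2DG 5. Ikbke passed the study's rule under 6 alternatives, among them a pseudocount of 0.1 (0.25), and between 0.19 and 0.29 when libraries were left out. Ifi211 passed it (0.55) without MWA 4 and MWA+2DG 5. The causes were not tested. FPKM without counts give no depth limit for the low genes.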
